A study of Homo sapiens with 54 samples.

Results

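The 37 genes described here make cholesterol and fatty acids or control and move these lipids. They were chosen by name, 37 of the 60676 genes that the deposited table of each library lists, with 18 genes of sterol synthesis, 5 of its control (INSIG1, INSIG2, SREBF1, SREBF2 and SCAP), 3 of sterol transport (STARD4, ABCA1 and ABCG1) and 11 of fatty acid synthesis and handling. They lie on 18 chromosomes, and all 37 passed the filter on low counts in every comparison. They were measured by RNA-seq of H9 hMSN-like cells, which are cultures of the human embryonic stem cell line H9 differentiated with activin A toward medium spiny neurons of the striatum.

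There were 53 libraries of 18 conditions in 4 experiments. In the 1 mM and the 1 µM dopamine experiments, cultures were exposed for 1 h to a single dose (Acute) or once a day for 5 days (Chronic), and RNA was taken at 1 h or at 24 h. Each dose had its own 3 control libraries labelled PBS, shared by its 4 dopamine conditions. Per the study's methods dopamine was dissolved with ascorbic acid, so dopamine and ascorbic acid cannot be told apart in the comparisons with PBS, and acute cultures were taken on an earlier day of culture than chronic ones. In the time course, 1 mM dopamine was given daily for 2, 3, 4 or 5 days (Day 2 to Day 5), RNA was taken 1 h after the last dose, and the control was ascorbic acid (AA). In the agonist experiment, 50 µM SKF82958, an agonist of D1-like receptors, and 50 µM quinpirole, an agonist of D2-like receptors, were compared with Water. Every group held 3 libraries except Day 5 with 2, since its replicate 1 was not analysed here, all from the same cell line, and the cultures are mixtures of cell types.

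Cholesterol is built from acetyl-CoA through mevalonate, squalene and lanosterol, and the genes of this route are switched together by the transcription factor SREBP2, the product of SREBF2. SREBP precursors sit in the endoplasmic reticulum with SCAP. When sterols are plentiful, INSIG1 and INSIG2 hold SCAP there and the genes stay low, and when sterols are scarce SCAP carries SREBP to the Golgi, where it is cleaved to its active form. SREBP1, from SREBF1, acts more on fatty acid synthesis, while ABCA1 and ABCG1, which export cholesterol, are switched on by LXR when sterols accumulate. Neurons and their neighbours depend on local synthesis because plasma cholesterol hardly crosses into the brain.

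The promoters of members that the results turn on are printed so that the elements through which SREBP and its partner NF-Y are known to act can be seen. The sequences are RefSeq's for GRCh38.p14, with 32 of the 37 genes matched by symbol, and each is the 250 bases before a gene's start, read 5′ to 3′ on the gene's strand. Capitals mark CCAAT, the box that NF-Y binds, and TCACNCCAC, a form of the sterol regulatory element, either of them on either strand (CCAAT then reads ATTGG). MSMO1, a demethylase of the late sterol pathway, lies at chr4:165327419-165327668 on the + strand. HMGCS1, which makes the precursor of mevalonate, lies at chr5:43313413-43313662 on the - strand. INSIG1 lies at chr7:155297628-155297877 (+), INSIG2 at chr2:118088221-118088470 (+), SREBF2 at chr22:41832855-41833104 (+) and SCD, the desaturase that makes oleate, at chr10:100346983-100347232 (+).
MSMO1: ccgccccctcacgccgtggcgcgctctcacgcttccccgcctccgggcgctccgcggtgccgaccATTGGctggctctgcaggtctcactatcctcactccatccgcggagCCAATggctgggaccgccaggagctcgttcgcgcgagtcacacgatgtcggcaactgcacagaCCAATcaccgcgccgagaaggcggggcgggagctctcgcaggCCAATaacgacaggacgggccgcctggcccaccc
HMGCS1: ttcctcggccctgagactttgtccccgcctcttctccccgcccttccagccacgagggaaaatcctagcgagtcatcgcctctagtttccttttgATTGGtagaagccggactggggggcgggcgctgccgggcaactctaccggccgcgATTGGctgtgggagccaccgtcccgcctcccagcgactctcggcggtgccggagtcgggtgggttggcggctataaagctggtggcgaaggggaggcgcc
INSIG1: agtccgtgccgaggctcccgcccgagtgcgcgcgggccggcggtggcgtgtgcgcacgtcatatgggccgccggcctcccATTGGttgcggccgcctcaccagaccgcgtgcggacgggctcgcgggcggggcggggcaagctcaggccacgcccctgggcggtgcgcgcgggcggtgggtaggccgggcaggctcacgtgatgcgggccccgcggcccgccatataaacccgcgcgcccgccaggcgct
INSIG2: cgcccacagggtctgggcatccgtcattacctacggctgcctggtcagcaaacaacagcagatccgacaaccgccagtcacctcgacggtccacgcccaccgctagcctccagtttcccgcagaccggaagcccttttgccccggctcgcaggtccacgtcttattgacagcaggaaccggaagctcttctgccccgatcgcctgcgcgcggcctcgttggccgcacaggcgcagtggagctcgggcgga
SREBF2: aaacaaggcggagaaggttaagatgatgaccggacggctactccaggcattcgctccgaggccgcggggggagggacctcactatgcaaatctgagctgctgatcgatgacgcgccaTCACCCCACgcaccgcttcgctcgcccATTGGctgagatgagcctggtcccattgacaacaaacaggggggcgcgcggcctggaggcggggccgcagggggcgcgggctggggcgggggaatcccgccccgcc
SCD: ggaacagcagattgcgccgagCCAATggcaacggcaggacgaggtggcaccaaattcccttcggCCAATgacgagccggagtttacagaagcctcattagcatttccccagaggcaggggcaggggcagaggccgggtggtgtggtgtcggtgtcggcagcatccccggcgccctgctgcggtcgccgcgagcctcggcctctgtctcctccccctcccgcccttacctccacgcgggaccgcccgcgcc

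MSMO1 held 4 CCAAT boxes, between 34 and 185 bases before its start, HMGCS1 and SCD held 2 each, and INSIG1 and SREBF2 held 1 each. For HMGCS1 this is the promoter printed, and a second listed promoter held 0. INSIG2 held none in this window, on either of its listed promoters. Of the 15 sterol synthesis genes with a promoter in the table, 13 (86.7%) held at least 1 CCAAT and 9 held 2 or more, against 37.0% with at least 1 among all 27305 genes. In these shares a gene was counted when any of its listed promoters held the motif. The box was found in 6 of 10 fatty acid genes, in 2 of 5 control genes and in 1 of 2 transport genes. TCACNCCAC was found only in SREBF2 (3.12% of the 32 genes, and 1.09% of all genes), while CACGTG, the E-box, was found in SC5D, INSIG1, SCAP, ABCA1 and ELOVL5 (15.6%, against 7.73% of all genes). None of the 3 motifs contains another, and each match is a description of the sequence only.

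Levels are given in TPM, the authors' measure of exon reads per exon length scaled to a common sum, and tests used exon reads. Libraries held 5755919 to 27702963 exon reads, apart from Quinpirole replicate 1 with 137051 and 96.7% of its gene reads in introns. The lowest exon count of any member in any other library was 79. For counting error alone, 3 reads on a gene of 2000 bases are 0.2075 to 0.9547 TPM in those libraries and 48.33 TPM in Quinpirole replicate 1. Another library, Acute 24 h at 1 mM replicate 1, stood apart in its marker genes, with a summed 766 TPM of the 10 striatal neuron markers while the highest library of its group had 1490 TPM. Exon-read counts of members that rest on either library are given with and without it. Fold changes of single genes at 1 mM are from the fit with all libraries, as are the intron-read counts there other than that of Chronic 1 h. At least 9 of the 10 neuron markers had a mean of 1 TPM or more in every condition, and so had all 5 cycling progenitor markers. Of the 5 oligodendrocyte markers, 1 to 3 had such a mean in each condition, and their sum was 19.8 to 136 TPM. Among these MAG, a defining gene of oligodendrocytes, was at most 0.143 TPM in any library. In such bulk libraries, fewer cells of a type and less RNA per cell cannot be told apart.

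The sterol synthesis genes were abundant. Their summed level was 3100 to 3464 TPM in the PBS libraries of 1 mM and 2932 to 4185 TPM in those of 1 µM, against 1922 to 2251 TPM in AA and 1969 to 2162 TPM in Water. These experiments had separate cultures, so the values stand side by side without a test. The fatty acid genes summed to 2359 to 2489, 1853 to 3012, 1678 to 1912 and 1614 to 1768 TPM in the same 4 controls. SCD was the highest of the named fatty acid genes, at 934 to 1048 TPM in PBS of 1 mM, and ABCA1 and ABCG1 were among the lowest members, at 12.02 to 15.0 and 9.90 to 13.8 TPM.

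**Figure D1:**
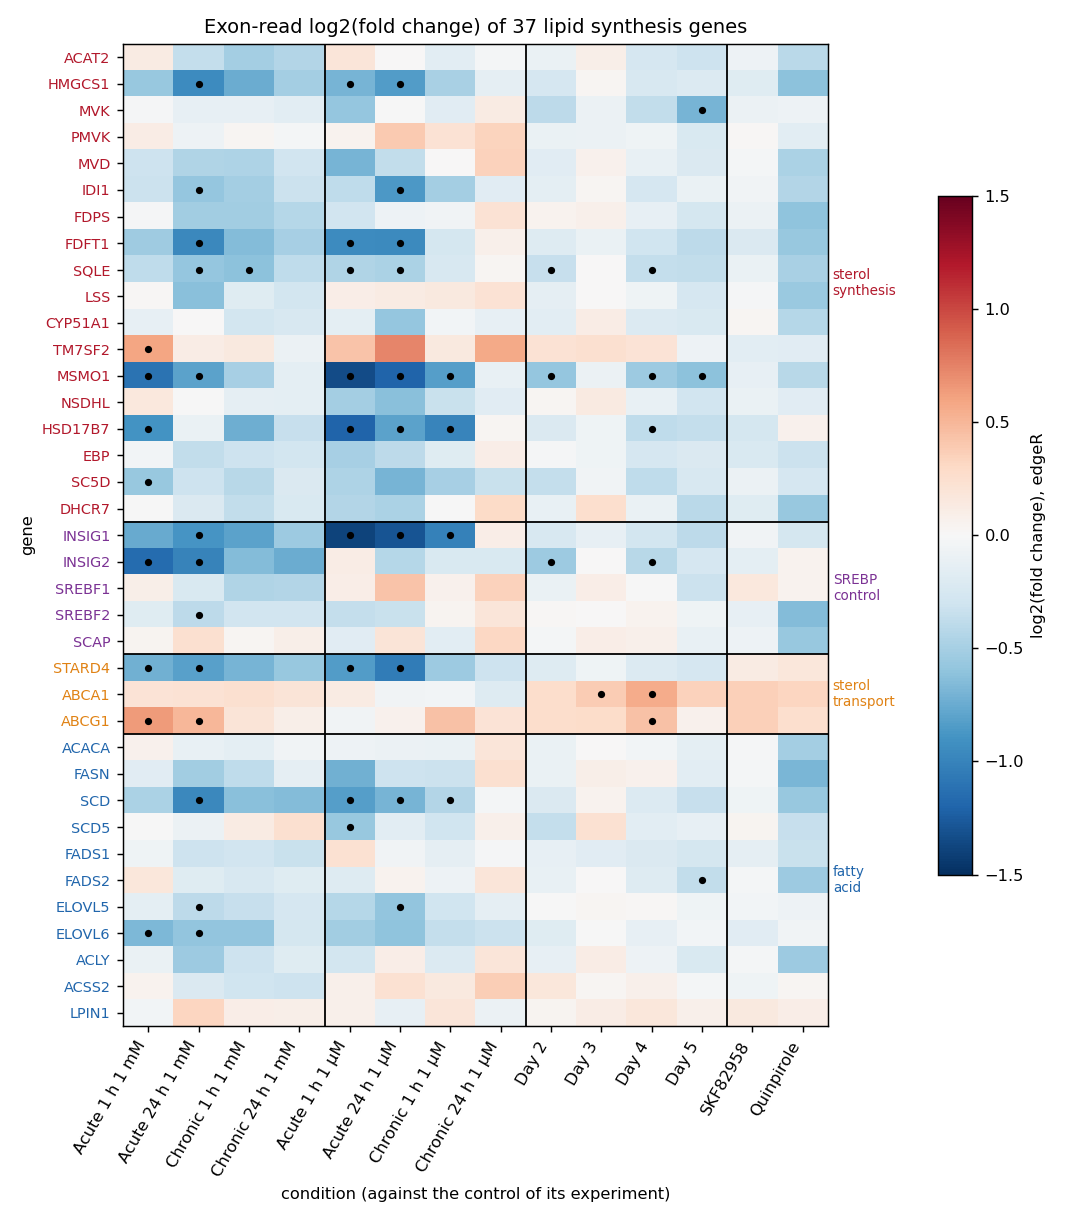
Exon-read log2(fold change) of the 37 genes (rows, by role) in the 14 conditions against the control of their own experiment (columns), with a black dot where edgeR's adjusted p-value was under 0.05. Blue cells are lower and red cells higher than control. MSMO1, INSIG1, HSD17B7 and SCD are blue with dots in the first 3 conditions at 1 µM, no cell of Chronic 24 h at 1 µM has a dot, and the quinpirole column includes replicate 1.

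A single dose of 1 µM dopamine was followed by lower levels of sterol synthesis genes. At Acute 1 h, 9 of the 37 genes were lower than PBS with an adjusted p-value under 0.05 (edgeR quasi-likelihood, Benjamini-Hochberg over all genes tested) and none was higher, while 2.52% of all genes tested were lower. They were 5 of 18 sterol synthesis genes (MSMO1, HSD17B7, FDFT1, HMGCS1 and SQLE), INSIG1, STARD4 and the desaturases SCD and SCD5. The median log2(fold change) was -0.46 for sterol synthesis, -0.28 for the fatty acid genes and 0.02 over all genes. With the study's DEG rule, which also asks for a change of 1 or more on the log2 scale and for a group mean of 1 TPM or more, 3 genes remained (INSIG1, MSMO1 and HSD17B7), and 1.04% of all genes were lower by that rule. A fit of the 6 libraries compared alone called 2 members, and 52 of all 15352 genes. Leaving out Acute 1 h replicate 2 raised the count of 9 to 14.

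INSIG1, which retains SCAP and is itself a target of SREBP, had 320, 166 and 248 TPM in the 3 PBS libraries and 92.1, 72.0 and 110 TPM at Acute 1 h. The log2(fold change) was -1.39 ± 0.14 (SE) with an adjusted p-value of 5.08e-05 by edgeR, and every dopamine library lay below every PBS library. MSMO1 had 638, 464 and 529 TPM in PBS and 229, 182 and 222 TPM at Acute 1 h. Its log2(fold change) was -1.35 ± 0.12 (edgeR adjusted p-value 2.87e-05), a 2.54-fold lower level, and its groups did not overlap. HSD17B7, a reductase of the late sterol pathway, had 53.9, 32.2 and 46.3 TPM in PBS and 20.9, 15.5 and 20.0 TPM, with a log2(fold change) of -1.20 ± 0.15 and an edgeR adjusted p-value of 0.000292. Replicate 2 was the lowest library in both groups for all 3 genes.

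HMGCS1 had 780, 632 and 667 TPM in PBS and 400, 454 and 401 TPM at Acute 1 h, and the log2(fold change) was -0.69 ± 0.16 (edgeR adjusted p-value 0.0183). SQLE, the squalene epoxidase that commits squalene to sterols, had 315, 210 and 290 TPM against 184, 197 and 193 TPM, with a log2(fold change) of -0.45 ± 0.12 (edgeR adjusted p-value 0.0421). Neither gene overlapped between the groups. SCD had 1351, 990 and 1269 TPM against 727, 512 and 796 TPM, also without overlap, with a log2(fold change) of -0.82 ± 0.09 (edgeR adjusted p-value 0.000143). The regulators themselves did not pass: SREBF2 had 484, 241 and 437 TPM in PBS and 335, 162 and 399 TPM at Acute 1 h, and SREBF1 had 42.1, 9.33 and 34.8 against 34.3, 10.5 and 45.3 TPM. In both groups replicate 2 was far below its companions for SREBF1, and FASN, the fatty acid synthase, was spread likewise at 510, 149 and 382 TPM in PBS and 249, 72.2 and 299 TPM at Acute 1 h. These wide spreads limit what could be detected for such genes at 1 µM. The summed levels of the neuron, astrocyte, oligodendrocyte, cycling progenitor and mesenchymal marker lists overlapped between PBS and Acute 1 h, for example 1371 to 1562 and 1241 to 1658 TPM for the 5 cycling progenitor genes. Single markers passed all the same: 1 progenitor gene was higher, and 1 progenitor, 1 neuron and 1 mesenchymal gene were lower. Of all genes 3.25% were higher and 2.52% were lower, and the part of these markers was not tested.

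At Acute 24 h, 10 genes were lower than PBS and none was higher, with 1.91% of all genes lower. They were 6 sterol synthesis genes, INSIG1, STARD4, SCD and ELOVL5. INSIG1 stood at 77.9, 113 and 114 TPM, with a log2(fold change) of -1.29 ± 0.14, and MSMO1 at 206, 251 and 279 TPM, with -1.20 ± 0.12. STARD4, a carrier of cholesterol between membranes, had 136, 89.6 and 119 TPM in PBS and 50.0, 57.1 and 64.2 TPM at Acute 24 h, a log2(fold change) of -1.05 ± 0.17. All the values of these 3 genes lay below those of PBS, and they were the members that met the DEG rule, which 0.828% of all genes met in that direction. SCD stood at 671, 811 and 814 TPM, and HMGCS1 at 371, 425 and 408 TPM. Leaving out Acute 24 h replicate 1 or 3 lowered the count to 6. The 5 astrocyte genes summed to 77.8 to 91.1 TPM at Acute 24 h and 64.0 to 72.0 TPM in PBS, without overlap, and their part in the result was not tested.

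At Chronic 1 h, 1 h after the last of 5 daily doses of 1 µM, 4 genes were lower than PBS (0.834% of all genes were lower). INSIG1 had 122, 83.7 and 146 TPM, a log2(fold change) of -1.01 ± 0.14 with an edgeR adjusted p-value of 0.00175, and it alone met the DEG rule, against 0.333% of all genes. HSD17B7 had 21.6, 14.8 and 28.2 TPM with a log2(fold change) of -0.99 ± 0.15, and MSMO1 had 327, 206 and 373 TPM with -0.83 ± 0.12. SCD, the fourth gene, had 920, 684 and 988 TPM with -0.44 ± 0.09. None of the 4 overlapped with PBS. A fit of the 6 libraries compared alone called none of them, and 34 of all 15363 genes.

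At Chronic 24 h no gene passed edgeR, none of the 37 had an unadjusted p-value under 0.05, DESeq2 called 0, and 0% of all genes passed edgeR in either direction. Of all genes, 608 of 16541 had an unadjusted edgeR p-value under 0.05, and DESeq2 called 1 of 28571. MSMO1 was at 497, 537 and 509 TPM and INSIG1 at 270, 277 and 241 TPM, within the range of the PBS libraries, and HMGCS1 was at 629, 664 and 658 TPM. The median log2(fold change) of the 37 genes was 0.08. Whether Chronic 24 h differed from Acute 24 h was not tested.

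**Figure D2:**
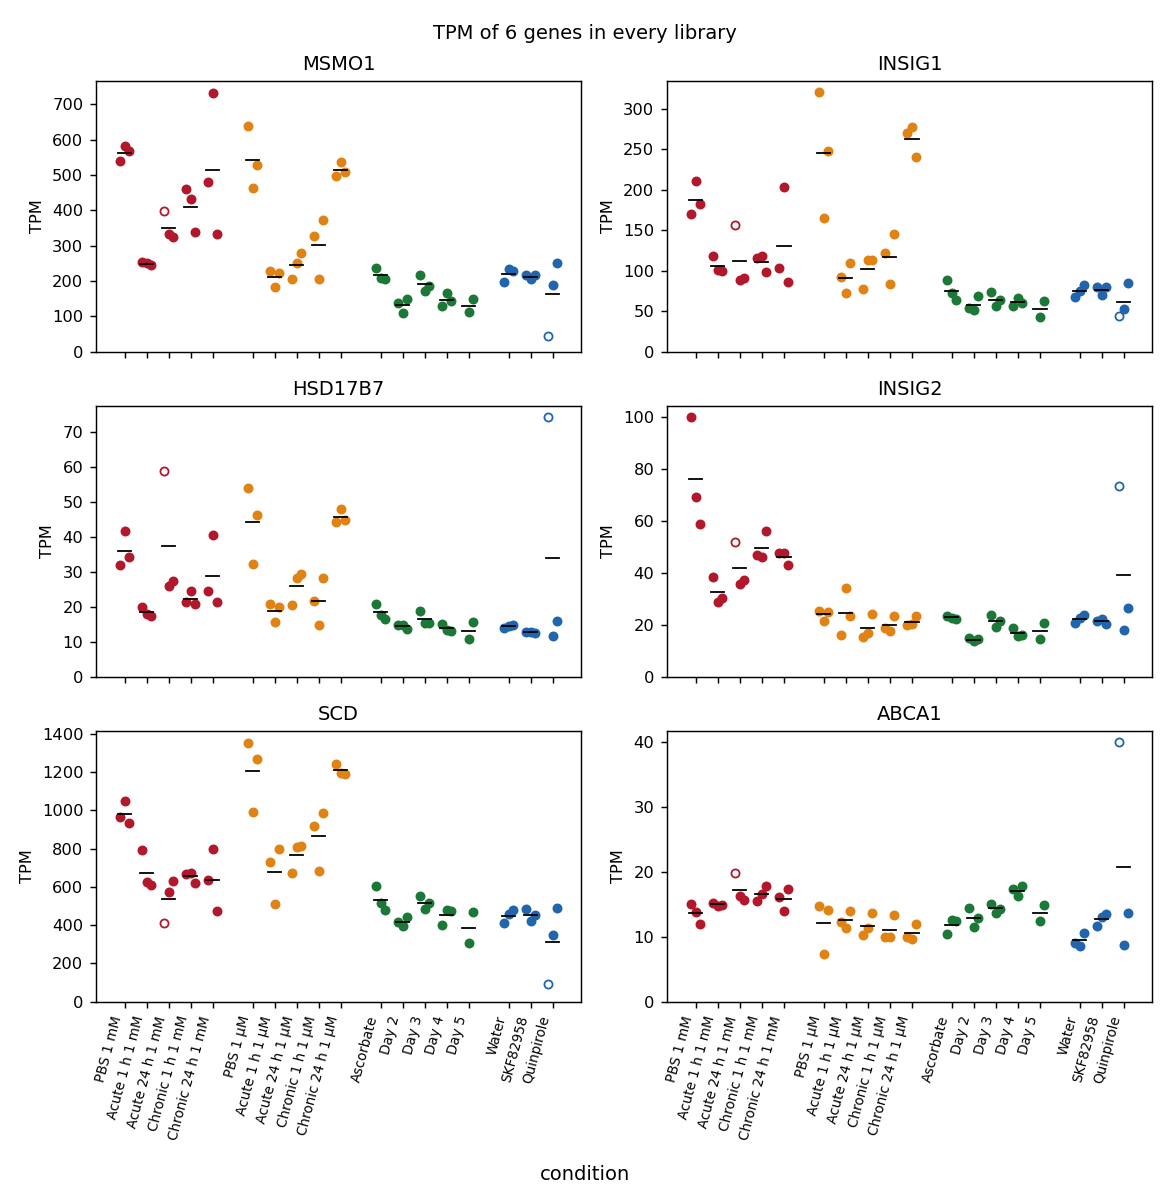
TPM in every library of MSMO1, INSIG1, HSD17B7, INSIG2, SCD and ABCA1 over the 18 conditions, where each point is a library, lines are group means and open circles are Acute 24 h at 1 mM replicate 1 and Quinpirole replicate 1. MSMO1 at 1 µM falls from 464 to 638 TPM in PBS to 182 to 229 TPM at Acute 1 h and is at 497 to 537 TPM at Chronic 24 h, while INSIG2 lies below PBS in the 4 conditions at 1 mM and overlaps PBS in those at 1 µM.

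Intron reads are a second readout from the same libraries. They are usually taken to come mostly from RNA that is not yet spliced, and so to follow recent synthesis more closely than exon reads do. Their source in these libraries was not tested. The intron reads were compared in the same way on their own. At 1 µM Acute 1 h, 20 of 37 genes had fewer intron reads than PBS and 1 had more, where 9.04% of all genes were lower and 3.76% were higher. The 20 included 13 of 18 sterol synthesis genes. The median log2(fold change) of the 37 genes was -1.29, that of sterol synthesis -1.62 and that of all genes 0.13.

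HMGCS1 had 744, 673 and 697 RPM (reads-per-million, a gene's intron reads scaled to all intron reads of its library) in PBS and 109, 102.3 and 142 at Acute 1 h. The log2(fold change) of its intron reads was -2.77 ± 0.19 (edgeR adjusted p-value 1.23e-06), a 6.82-fold lower level, with no overlap. FDFT1, the squalene synthase, had 793, 751 and 733 RPM against 96.5, 93.0 and 115 RPM, and a log2(fold change) of -3.09 ± 0.30 (edgeR adjusted p-value 1.66e-05). INSIG1 had 139, 77.5 and 102.3 RPM against 13.4, 12.3 and 30.2 RPM, with -2.71 ± 0.36. In each of these genes the 3 dopamine libraries formed a group far below PBS. SCD5, a desaturase expressed in brain, was the gene with more intron reads, at 43.5, 32.7 and 37.7 RPM in PBS and 70.8, 76.2 and 72.8 RPM at Acute 1 h (log2(fold change) 0.75 ± 0.17, edgeR adjusted p-value 0.0095), while its exon reads were among those that were lower.

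INSIG2 intron reads were also lower at 1 µM Acute 1 h, at 65.2, 68.4 and 81.9 RPM in PBS and 38.5, 35.1 and 36.2 RPM, although its exon level overlapped (25.4, 21.5 and 25.1 TPM against 16.1, 34.1 and 23.5 TPM). The share of gene reads in introns was 22.3% to 23.6% in the PBS libraries and 20.2% to 31.2% at Acute 1 h, and its part in the intron results was not tested. Leaving out any one library of the groups compared left 18 to 24 genes that passed.

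At 1 µM Acute 24 h, 7 genes had fewer intron reads than PBS (2.24% of all genes), 6 of them in sterol synthesis. FDFT1 stood at 197, 225 and 236 RPM (log2(fold change) -1.91 ± 0.28). CYP51A1, the lanosterol demethylase, had 155, 123 and 131 RPM in PBS and 45.1, 36.7 and 39.98 (-1.87 ± 0.29), and SQLE had 185, 195 and 146 against 53.0, 57.2 and 60.6 (-1.74 ± 0.19). None of the 3 overlapped with PBS. HMGCS1 stood at 217, 236 and 266 RPM, between the values of Acute 1 h and PBS.

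At 1 µM Chronic 1 h, 14 genes had fewer intron reads and 1 had more, with 5.98% and 2.59% of all genes, and 8 of the 14 were sterol synthesis genes. HMGCS1 stood at 103, 84.9 and 110 RPM, a log2(fold change) of -2.86 ± 0.19, FDFT1 at 116, 62.2 and 173, with -2.70 ± 0.29, and HSD17B7 at 51.0, 27.7 and 48.5 against 192, 167 and 167 in PBS, with -2.07 ± 0.25. For HMGCS1 these values are as low as those of Acute 1 h. In the direct comparison of Chronic 1 h with Acute 1 h at 1 µM, no member passed on intron reads. At Chronic 24 h no member passed edgeR on intron reads, 1 had an unadjusted p-value under 0.05, and 0% of all genes passed. An unadjusted edgeR p-value under 0.05 was found for 512 of all 19649 genes. HMGCS1 was then at 746, 728 and 678 RPM and FDFT1 at 785, 806 and 758 RPM, beside 673 to 744 and 733 to 793 in PBS.

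**Figure D3:**
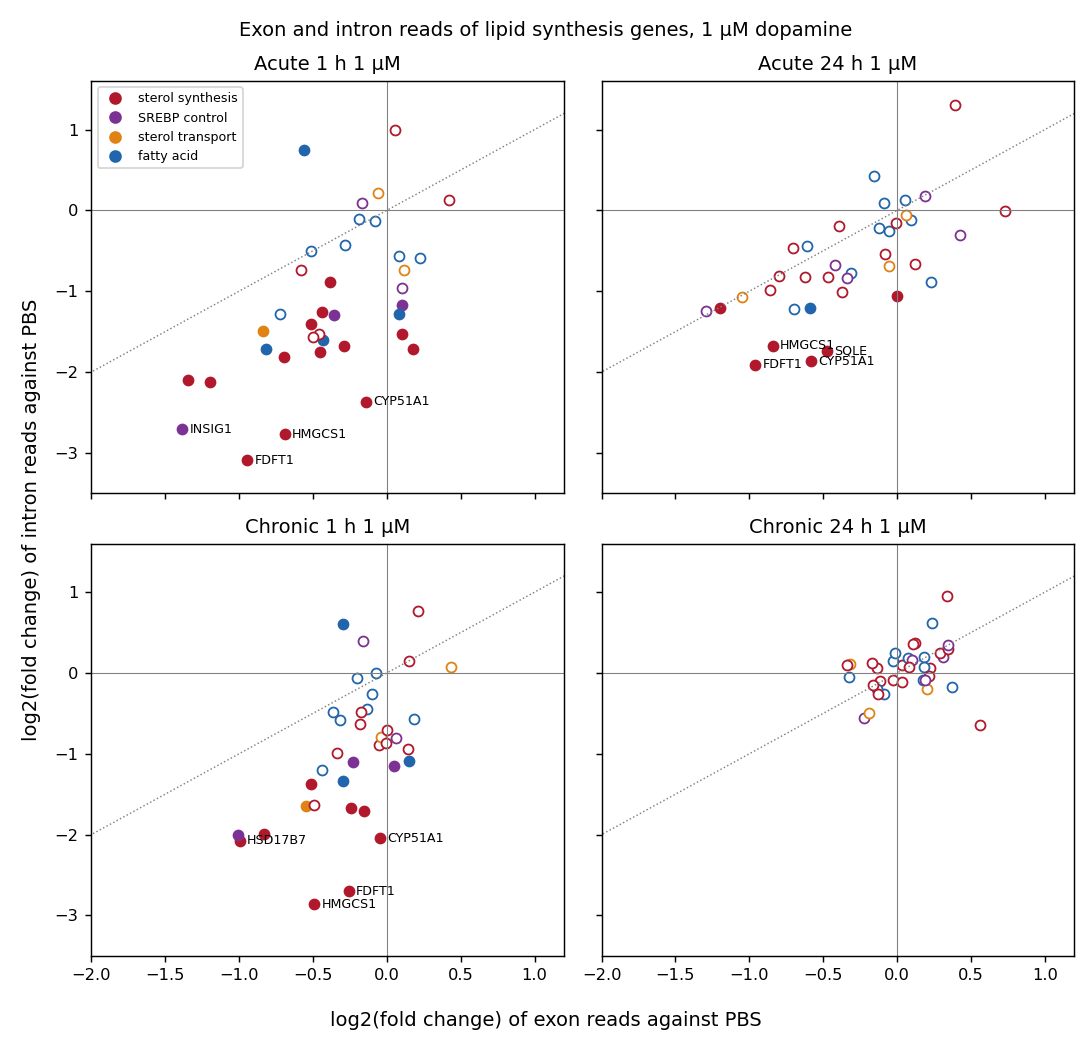
Log2(fold change) of exon reads (x axis) and of intron reads (y axis) of the 37 genes in the 4 conditions at 1 µM against PBS, where each point is a gene, filled points had an adjusted p-value under 0.05 on intron reads and the dotted line marks equal values. At Acute 1 h HMGCS1 lies at -0.69 on exon and -2.77 on intron reads and FDFT1 at -0.94 and -3.09, while at Chronic 24 h the points gather near 0.

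At 1 mM, Acute 1 h had 6 members lower and 2 higher than PBS, where 7.94% of all genes were lower and 8.04% were higher. INSIG2 had the largest change, with 100, 69.4 and 58.8 TPM in PBS and 38.5, 28.8 and 30.4 TPM at Acute 1 h, a log2(fold change) of -1.16 ± 0.18 (edgeR adjusted p-value 0.00124). MSMO1 had 540, 582 and 568 TPM in PBS and 253, 250 and 245 TPM, with -1.11 ± 0.21 (edgeR adjusted p-value 0.00429). INSIG2 and MSMO1 did not overlap with PBS and met the DEG rule, which 2.19% of all genes met in that direction. HSD17B7 had 32.0, 41.6 and 34.3 TPM against 20.0, 18.0 and 17.4 TPM, with -0.90 ± 0.26, and the other 3 lower genes were STARD4, ELOVL6 and SC5D. HMGCS1 had 525, 578 and 579 TPM against 375, 361 and 349 TPM and SQLE 220, 258 and 252 against 190, 174 and 173 TPM. All 3 dopamine libraries of both genes lay below PBS, yet neither passed in the fit of all 15 libraries. The count of 8 members fell to 4 without PBS replicate 2, Acute 1 h replicate 2 or Acute 1 h replicate 3, and to 5 without PBS replicate 1 or 3.

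The 2 members that rose at 1 mM Acute 1 h were ABCG1 and TM7SF2. ABCG1, the cholesterol exporter, had 13.0, 13.8 and 9.90 TPM in PBS and 19.0, 17.1 and 18.6 TPM at Acute 1 h (log2(fold change) 0.64 ± 0.14, edgeR adjusted p-value 0.0102). TM7SF2, a sterol reductase, had 53.0, 52.2 and 52.4 TPM against 74.4, 78.4 and 74.5 TPM (0.59 ± 0.14, edgeR adjusted p-value 0.0155), and neither gene overlapped. ABCA1 had 15.0, 13.8 and 12.02 TPM in PBS and 15.2, 14.8 and 14.9 TPM at Acute 1 h and did not pass. On total gene reads, which add intron to exon reads, 7 members were higher and 4 lower at 1 mM Acute 1 h, where 18.5% of all genes were higher and 28.7% were lower. The share of intron reads was 12.3% to 13.2% at Acute 1 h and 19.5% to 21.8% in PBS, and its part in these counts was not tested.

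At 1 mM Acute 24 h, 12 members were lower and 1 was higher than PBS, with 7.09% and 8.38% of all genes. INSIG2 stood at 52.0, 35.6 and 37.4 TPM with a log2(fold change) of -0.999 ± 0.17. SCD had 965, 1048 and 934 TPM in PBS and 410, 575 and 631 TPM, with -0.97 ± 0.21, and FDFT1 had 329, 372 and 354 TPM against 162, 199 and 220 TPM, also with -0.97 ± 0.22. In the fits with all libraries, SREBF2 passed on exon reads in no other condition. It was at 266, 253 and 278 TPM against 296, 339 and 331 TPM in PBS (log2(fold change) -0.39 ± 0.11, edgeR adjusted p-value 0.0334). ABCG1 was the member that rose, to 24.4, 15.7 and 17.0 TPM (0.50 ± 0.14). Without replicate 1 of Acute 24 h, the log2(fold change) values of the members ran from -1.12 to 0.37. No member met the DEG rule. The library that stood apart, replicate 1, had the lowest SCD and FDFT1 values, but its HSD17B7 value was 58.7 TPM, above every PBS library, while its companions had 26.0 and 27.5 TPM. A fit of the 6 libraries compared alone called 0 of all 16818 genes, so no member could pass it. The count of 13 was 1 without PBS replicate 2 and 5 without PBS replicate 1 or 3.

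At 1 mM Chronic 1 h, SQLE was the member that passed, with 176, 161 and 154 TPM against 220, 258 and 252 TPM in PBS (log2(fold change) -0.61 ± 0.14, edgeR adjusted p-value 0.0441), where 0.814% of all genes were lower. The median log2(fold change) of the 37 genes was -0.34, against 0.00 over all genes. An unadjusted edgeR p-value under 0.05 was found for 24 of the 37 and for 2923 of all 17804 genes. DESeq2 called 8 members and 1035 of all 17008 genes. INSIG1 had 170, 210 and 182 TPM in PBS and 116, 118 and 97.9 TPM at Chronic 1 h, and HMGCS1 had 381, 342 and 310 TPM at Chronic 1 h, both below every PBS library. The call of SQLE was lost without PBS replicate 1 or 2 or without any of the 3 Chronic 1 h libraries. At Chronic 24 h no member passed edgeR, 14 had an unadjusted p-value under 0.05, DESeq2 called 1, and 0.663% of all genes passed edgeR in either direction. Of all genes, 1921 of 17804 had an unadjusted edgeR p-value under 0.05, and DESeq2 called 407 of 17648. Replicate 2 of that group stayed near PBS, with 558 TPM of HMGCS1 and 732 TPM of MSMO1 against 365 and 276, and 481 and 334, in its companions. Without replicate 2, 5 members passed, and without PBS replicate 3, 1 did.

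These counts at 1 mM turned on the library that stood apart, since all 15 libraries share one estimate of spread. Without Acute 24 h replicate 1, 12 members were lower and 3 higher at Acute 1 h (19.9% and 19.9% of all genes), and 15 were lower and 2 higher at Acute 24 h (11.1% and 11.1%). At Chronic 1 h, 24 were lower and none was higher, with 9.10% of all genes lower. The 24 were 12 of 18 sterol synthesis genes, 4 of 5 control genes, 1 of 3 transport genes and 7 of 11 fatty acid genes. At Chronic 24 h, 8 were lower and none was higher, with 5.42% of all genes lower. The share of members lower was above that of all genes in each of the 4 conditions, and the background itself rose from 0.814% to 9.10% at Chronic 1 h. The 5 cycling progenitor genes summed to 1137 to 1202 TPM in PBS of 1 mM, and to less without overlap at Acute 1 h (1009 to 1049 TPM), Chronic 1 h (841 to 859 TPM) and Chronic 24 h (860 to 968 TPM). The 5 astrocyte genes summed to 115 to 151 TPM in PBS, to less at Acute 1 h (106 to 111 TPM) and to more at Chronic 1 h (194 to 206 TPM) and Chronic 24 h (152 to 201 TPM). The 5 oligodendrocyte genes summed to 79.0 to 92.9 TPM in PBS, 125 to 133 TPM at Chronic 1 h and 106 to 136 TPM at Chronic 24 h. The 10 striatal neuron genes summed to 1440 to 1652 TPM in PBS and, without overlap, to 1334 to 1401 TPM at Chronic 1 h. They overlapped PBS at Acute 1 h and Chronic 24 h. At Acute 24 h all of these lists overlapped PBS. The part of these cell type markers in the results was not tested.

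**Figure D4:**
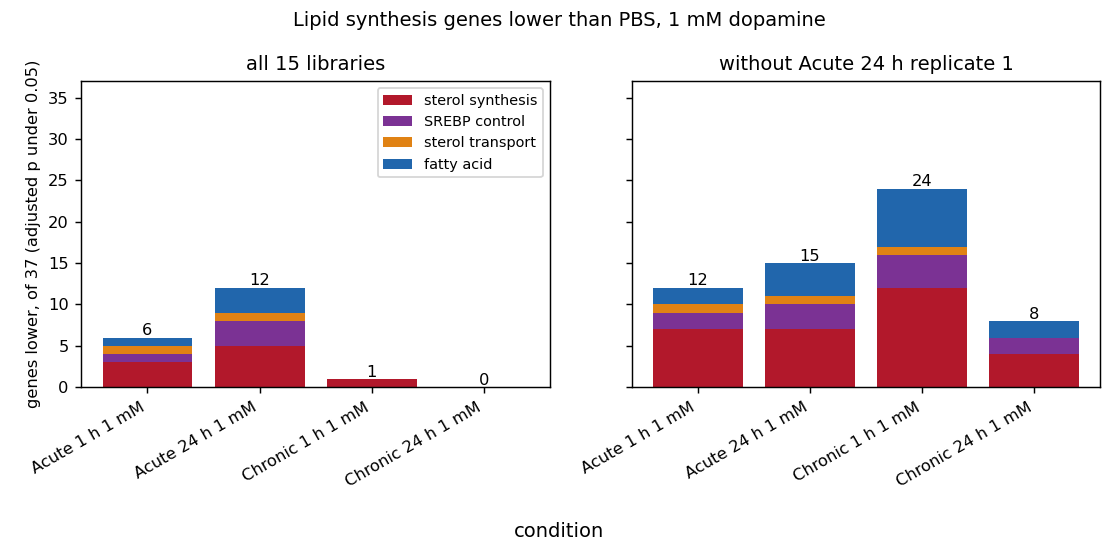
Number of the 37 genes lower than PBS with an adjusted p-value under 0.05 in each 1 mM condition, by role, with all 15 libraries and without Acute 24 h replicate 1. The bar of Chronic 1 h goes from 1 to 24 genes and that of Acute 1 h from 6 to 12.

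On intron reads at 1 mM, INSIG2 was lower in all 4 conditions. It had 302, 197 and 147 RPM in PBS, 40.3, 28.6 and 39.1 at Acute 1 h, 80.1, 53.1 and 55.7 at Acute 24 h, 73.8, 66.7 and 68.3 at Chronic 1 h and 82.0, 75.7 and 50.3 at Chronic 24 h. Every dopamine library lay below every PBS library, and the log2(fold change) values were -2.27 ± 0.26, -1.55 ± 0.25, -1.66 ± 0.24 and -1.64 ± 0.24 and edgeR adjusted p-values of 3.21e-05, 0.00127, 0.00246 and 0.0120. Over the members, 6 were lower and 7 higher at Acute 1 h (22.1% and 23.1% of all genes), 3 lower and 2 higher at Acute 24 h (18.6% and 19.4%), 7 lower at Chronic 1 h (1.27%) and 3 lower at Chronic 24 h (0.114%). At the acute times these shares are near or below those of all genes. The 7 members with more intron reads at Acute 1 h were 3 sterol synthesis, 1 transport and 3 fatty acid genes. Log2(fold change) values of the members there ran from -2.27 to 1.47, the highest in sterol synthesis.

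HMGCS1 intron reads were 494, 440 and 347 RPM in PBS of 1 mM, 177, 153 and 156 at Acute 1 h and 183, 163 and 136 at Chronic 1 h, for which the log2(fold change) was -1.09 ± 0.35 and -1.45 ± 0.35 respectively. At Chronic 24 h they were 155, 406 and 119 RPM, and as on exon reads replicate 2 lay with PBS. SCD intron reads fell from 145, 134 and 111 RPM to 54.6, 60.8 and 48.0 at Chronic 1 h (-1.30 ± 0.21), and SREBF1 intron reads, which did not pass at the acute times, had 115, 119 and 100 RPM in PBS and 59.5, 63.3 and 50.6 at Chronic 24 h (-0.96 ± 0.15, edgeR adjusted p-value 0.0183).

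Chronic 1 h was also set against Acute 1 h directly. Per the study's methods the chronic cultures were older, so repeated dosing and age of culture cannot be told apart here. At 1 mM, ACAT2, SREBF1 and NSDHL were lower at Chronic 1 h (5.91% of all genes were lower). ACAT2, which condenses acetyl-CoA at the head of the route, had 197, 199 and 203 TPM at Acute 1 h and 139, 138 and 137 TPM at Chronic 1 h, and SREBF1 had 39.2, 31.8 and 31.6 against 24.7, 25.2 and 26.1 TPM, neither overlapping. Without Acute 1 h replicate 2 the count of 3 was 1, and without any other library of these groups it was 0. Without the library that stood apart, 11 members were lower and 2 higher, with 16.6% and 17.4% of all genes. At 1 µM, FDFT1 alone was higher at Chronic 1 h (0.556% of all genes), with 272, 168 and 286 TPM at Acute 1 h and 411, 278 and 455 TPM at Chronic 1 h, where the groups overlapped. This call was lost without Chronic 1 h replicate 1 or 3, and 2 members passed without replicate 2 of either group.

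The doses were compared at Acute 1 h by testing the difference between their fold changes in one fit of both experiments. INSIG2 was the member that passed, with a difference of log2(fold change), 1 mM minus 1 µM, of -1.23 ± 0.32 (edgeR adjusted p-value 0.0409), where 0.919% of all genes passed in that direction. INSIG2 exon levels were 58.8 to 100 TPM in PBS of 1 mM and 21.5 to 25.4 TPM in PBS of 1 µM, so the controls of the doses themselves stood apart. Dose and experiment cannot be told apart. The call was lost without PBS replicate 1 or 2 or any Acute 1 h library at 1 mM, and without PBS replicate 1 or 3 or Acute 1 h replicate 2 at 1 µM, while 2 members passed without PBS replicate 3 at 1 mM or Acute 1 h replicate 3 at 1 µM. For MSMO1 the values stood side by side at -1.11 ± 0.21 and -1.35 ± 0.12.

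In the time course, MSMO1 had 237, 208 and 207 TPM in AA and 137, 110 and 150 TPM at Day 2, a log2(fold change) of -0.58 ± 0.11 (edgeR adjusted p-value 0.00848), and every Day 2 library lay below AA. INSIG2 had 23.6, 22.5 and 22.4 TPM in AA and 14.8, 13.8 and 14.4 TPM at Day 2 (-0.54 ± 0.09, edgeR adjusted p-value 0.00415), and SQLE had 161, 143 and 144 TPM against 107, 96.9 and 118 TPM (-0.34 ± 0.08). These were the 3 members that passed at Day 2, all lower, where 1.99% of all genes were lower. The count was 1 without Day 2 replicate 2 and 5 without Day 2 replicate 3.

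At Day 3 no member was lower, and MSMO1 stood at 218, 172 and 186 TPM, overlapping AA. ABCA1 was the member that passed, with 10.4, 12.5 and 12.4 TPM in AA and 15.1, 13.7 and 14.3 TPM at Day 3 (log2(fold change) 0.38 ± 0.09, edgeR adjusted p-value 0.0192), where 4.77% of all genes were higher, and its groups did not overlap. That call was lost without Day 3 replicate 2 or 3 and without AA replicate 1 or 2. At Day 4, 4 members were lower (1.80% of all genes) and 2 were higher (2.58%). MSMO1 stood at 131, 165 and 144 TPM (-0.54 ± 0.11), INSIG2 at 18.7, 15.8 and 16.0 TPM (-0.41 ± 0.09) and HSD17B7 at 15.1, 13.3 and 13.1 TPM against 20.9, 17.7 and 16.5 TPM in AA (-0.38 ± 0.10), and the fourth was SQLE. ABCA1 rose to 17.3, 16.2 and 17.8 TPM (0.56 ± 0.09, edgeR adjusted p-value 0.00322) and ABCG1 to 17.6, 14.4 and 16.3 TPM from 10.9, 14.3 and 11.1 TPM (0.44 ± 0.11), and neither exporter overlapped with AA, although the lowest ABCG1 value at Day 4 (14.4 TPM) lay next to the highest in AA (14.3 TPM). The count of 6 at Day 4 was 1 without Day 4 replicate 3 or AA replicate 1, and 2 without Day 4 replicate 1 or AA replicate 3.

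At Day 5, with 2 libraries, MVK, the mevalonate kinase, had 9.39 and 12.8 TPM against 21.2, 20.0 and 17.5 TPM in AA (log2(fold change) -0.70 ± 0.14). MSMO1 had 112 and 149 TPM (-0.62 ± 0.12) and FADS2, a desaturase of polyunsaturated fatty acids, 85.8 and 121 TPM against 154, 142 and 138 TPM (-0.37 ± 0.09). These 3 were the members that passed, where 0.406% of all genes were lower, and 34 of 37 had a log2(fold change) below 0. Against Day 3, 5 members were lower at Day 5 (0.626% of all genes), namely DHCR7, MSMO1, SREBF1, NSDHL and FADS2, and all 37 values were below 0 with a median of -0.26. The 2 Day 5 libraries differed from each other, with 15.7 and 25.8 TPM of SREBF1 and 149 and 301 TPM of FASN, against 27.7 to 28.3 and 256 to 276 TPM at Day 3. Without Day 5 replicate 3 the counts against AA and against Day 3 were 8 and 8, and without Day 5 replicate 2 they were 0 and 2. Against AA the count was 0 without AA replicate 1 and 1 without AA replicate 2 or 3, and against Day 3 it was 0 without Day 3 replicate 2 or 3. The cycling progenitor genes summed to 896 to 973 TPM in AA, to 722 to 875 TPM at Day 2, 588 to 720 TPM at Day 3, where all 5 were lower, and 671 to 771 TPM at Day 4, and to 572 and 897 TPM in the 2 libraries of Day 5, of which the second overlapped AA. The mesenchymal genes summed to 167 to 223 TPM in AA and 214 to 323 TPM at Day 2, which overlapped. They summed to 255 to 443 TPM at Day 3, where 3 of 5 were higher, 321 to 351 TPM at Day 4 and 251 to 405 TPM at Day 5, without overlap. The oligodendrocyte genes summed to 55.3 to 60.5 TPM in AA, 37.8 to 54.0 TPM at Day 2 and 70.2 to 82.3 TPM at Day 3. The astrocyte genes summed to 154 to 161 TPM in AA and, without overlap, to 162 to 183 TPM at Day 3, 173 to 194 TPM at Day 4 and 176 to 185 TPM at Day 5. The part of these markers in the results of the members was not tested.

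Neither agonist moved the members past the test. For SKF82958, no member passed edgeR, 2 had an unadjusted p-value under 0.05, DESeq2 called 0, and 0.0124% of all genes passed edgeR in either direction. Of all genes, 185 of 16132 had an unadjusted edgeR p-value under 0.05, and DESeq2 called 5 of 29484. MSMO1 had 197, 233 and 228 TPM in Water and 217, 205 and 216 TPM with SKF82958, and INSIG1 67.8, 75.4 and 82.3 against 79.3, 70.3 and 80.0 TPM, with overlapping groups. For quinpirole, no member passed edgeR, 1 had an unadjusted p-value under 0.05, DESeq2 called 0, and 0% of all genes passed edgeR. Of all genes, 350 of 16132 had an unadjusted edgeR p-value under 0.05, and DESeq2 called 586 of 19196. Quinpirole replicate 1 was too shallow to show levels, with 45.2 TPM of MSMO1 beside 189 and 252 TPM in its companions and a floor of 48.33 TPM for a gene of 2000 bases.

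Without Quinpirole replicate 1, no member passed edgeR for either agonist, against 0.624% of all genes for SKF82958 and 0.184% for quinpirole. For SKF82958 10 members then had an unadjusted p-value under 0.05 with edgeR and 7 with DESeq2, for quinpirole 3 and 2, and DESeq2 called 0 for either agonist after adjustment. The log2(fold change) values then ran from -0.26 to 0.36 for SKF82958 and from -0.30 to 0.28 for quinpirole. ABCG1 had the highest value for SKF82958 (0.36 ± 0.11) and ABCA1 that for quinpirole (0.28 ± 0.11). ABCA1 had 9.06, 8.61 and 10.6 TPM in Water and 11.7, 13.0 and 13.5 TPM with SKF82958, and these groups did not overlap although the test was not passed. With SKF82958 the 5 astrocyte genes summed to 206 to 215 TPM, against 177 to 186 TPM in Water. The 5 mesenchymal genes summed to 233 to 307 against 191 to 203 TPM. The neuron, oligodendrocyte and cycling progenitor lists overlapped Water, and the part of these markers was not tested.

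Other genes of both pathways were taken from 2 lists of further sterol genes (17 of 18 tested) and further fatty acid genes (21 of 23 tested). At 1 µM Acute 1 h, 2 further sterol genes were higher and 1 was lower, where 3.25% of all genes were higher and 2.52% were lower, and no further fatty acid gene passed. MYLIP, a ubiquitin ligase that lowers lipoprotein uptake and is a target of LXR like ABCA1 and ABCG1, had a log2(fold change) of 1.00 ± 0.26 there, and SOAT1, which esterifies cholesterol for storage, one of 0.75 ± 0.16. Neither ABCA1 nor ABCG1 passed as higher at 1 µM Acute 1 h. The 3 transport members, STARD4 among them, ran from -0.84 to 0.12 in that comparison. FAXDC2 was lower at 1 µM Acute 1 h and Acute 24 h, with -0.81 ± 0.20 and -0.95 ± 0.20, and NPC2, which carries cholesterol out of lysosomes, was lower at Acute 24 h with -0.87 ± 0.18.

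MYLIP was higher in 7 of the comparisons with control. Its log2(fold change) was 1.504 ± 0.18 at 1 mM Acute 1 h and 1.09 ± 0.18 at 1 mM Chronic 1 h, and 1.00 ± 0.13, 1.18 ± 0.13, 1.25 ± 0.13 and 1.17 ± 0.14 at Day 2 to Day 5, and edgeR adjusted p-values over the 7 ran from 6.31e-05 to 0.0337. At 1 mM Acute 1 h, where 8.04% of all genes were higher and 7.94% were lower, 3 further sterol genes were higher and none was lower, and of the further fatty acid genes HACD3, of the elongation cycle, was higher (0.45 ± 0.08) and ACSL4, which activates arachidonate, was lower (-0.42 ± 0.10).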

How the data were processed

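The labels list 54 samples, of which 53 RNA-seq libraries were used, and Day 5 replicate 1 was not analysed here. Groups were taken from the sample labels. Per its methods, trimming and mapping were done in CLC Genomics Workbench against GRCh38 and its Ensembl genes, and the authors deposited one table per library with exon, intron and total gene read counts. The deposited TPM was made by the authors from exon reads and exon length, and recomputing it matched within 1 percent for 100% of values over 1 TPM. The strand used in counting and the sequencing provider of each library are not given in the sources used here, so reads of overlapping genes and paralogs are uncertain and no batch was modelled.

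Exon read counts, and separately intron read counts, were compared by edgeR 4.0.16 under R 4.3.3 (filterByExpr with minimum count 10 and minimum total 15, TMM, glmQLFit, glmQLFTest), with all libraries of an experiment in one fit and Benjamini-Hochberg adjustment over all genes within each comparison. The standard error is the absolute log2(fold change) over the square root of F. A gene passed with an adjusted p-value under 0.05. The members and the lists were chosen with earlier results of these data known. All members could be named, with values for at most the 3 with the largest change in each direction per comparison with control, plus HMGCS1, SQLE, MSMO1, INSIG1, SREBF1, SREBF2, FASN, SCD, ABCA1 and ABCG1, and at most 4 genes of each further list, those with the lowest adjusted p-values. Values of FDFT1, INSIG2, STARD4, SCD5 and CYP51A1 outside that rule were added after they were seen. Replicates are libraries of one cell line. The study calls its replicates independent, but neither it nor the labels say that each came from its own differentiation, so p-values measure the spread between these libraries, which may be technical. Alternatives were DESeq2 1.42.0, its size factors, no filter, total gene reads, only the groups compared, a replicate block and each library left out. The scripts were tested on simulated data. Tables and figures used Python 3.11.15. CGS21680, QRT-PCR and immunostaining were not analysed here.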

Additional observations from a re-analysis of the deposited data

Results flagged for a closer look

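Differences between 2 effects drew attention to 4 sets of values. Chronic 1 h minus Acute 1 h at 1 mM gave log2 differences of -0.64 for ACAT2, -0.54 for SREBF1 and -0.29 for NSDHL, each with an edgeR adjusted p-value under 0.05. At 1 µM the same difference was 0.69 for FDFT1. At either dose, repeated dosing and age of culture cannot be told apart in this comparison. Day 5 minus Day 3 gave -0.53 for MSMO1, -0.38 for FADS2, -0.66 for DHCR7, -0.42 for SREBF1 and -0.42 for NSDHL, where Day 5 held 2 libraries. The difference between the 1 mM and the 1 µM effects at Acute 1 h was -1.23 for INSIG2.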

How the results depend on the processing

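The counts of members that passed depended on the fit. The 68 gene results followed here were those with an adjusted p-value under 0.05 in the main edgeR fit. Of their 877 values under other settings, 636 stayed on their side of the threshold, 241 kept their direction but lost the call and 0 reversed. Since they were chosen for passing and the settings share most libraries, reversals were unlikely from the start. The directions of the other members were not followed. Counts of members, in either direction, were 8, 13, 1, 0 and 3 at 1 mM for the acute cultures at 1 h and 24 h, the chronic ones at 1 h and 24 h, and Chronic 1 h against Acute 1 h. With only the groups compared they were 19, 0, 28, 2 and 23, and without Acute 24 h replicate 1 (chosen after seeing the data) 15, 17, 24, 8 and 13, or with DESeq2 as well 14, 26, 13 and 14 for the comparisons other than Acute 24 h. Calls over all genes moved too. With only the groups compared, 7592 of 16694, 0 of 16818, 4340 of 17064, 246 of 16964 and 7388 of 16803 genes passed. DESeq2 gave 8 members at Chronic 1 h, 1 at Chronic 24 h and 8 for Chronic against Acute 1 h, and total gene reads gave 3, 1 and 21. Of all genes, DESeq2 called 1035 of 17008, 407 of 17648 and 2702 of 21494, and total gene reads 258, 42 and 10437 of 26006. The other counts of members were 9, 10, 4 and 1 at 1 µM for the acute cultures at 1 h and 24 h, Chronic 1 h, and Chronic 1 h against Acute 1 h. Total gene reads gave 15 at Acute 1 h, 7 at Chronic 1 h and 3 for Chronic against Acute, only the groups compared gave 2, 0 and 0, and DESeq2 gave 4 for the last. The calls over all genes were 1314, 806 and 294 of 22537, then 52 of 15352, 34 of 15363 and 0 of 15156, and 599 of 16933. The 3 members at Day 2, 6 at Day 4, 3 at Day 5 and 5 for Day 5 against Day 3 became 7, 12, 10 and 15 without the filter. That setting called 1420, 1502, 896 and 1133 of all 30252 genes. With only the groups compared the members were 5 at Day 2, 11 at Day 4 and 0 for Day 5 against Day 3. All genes called were then 1102 of 16054, 2145 of 15868 and 9 of 16083. For Day 5 and Day 5 against Day 3, DESeq2 gave 7 and 11 members and total gene reads 6 and 0. Of all genes, DESeq2 called 429 of 14413 and 555 of 15000, and total gene reads 221 and 10 of 21690. The dose difference, 1 member, became 2 with DESeq2, 20 with total gene reads, 0 with only the groups compared and 2 without Acute 24 h replicate 1. For it DESeq2 called 807 of all 21908 genes and total gene reads 7299 of 26135.

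Leaving out each library of the groups in turn gave 4 to 6, 1 to 18, 0 to 1, 0 to 5 and 0 to 1 members at 1 mM in the order above, 7 to 14, 6 to 8, 3 to 3 and 0 to 2 at 1 µM, and 0 at Chronic 24 h. It gave 1 to 5 at Day 2, 0 to 1 at Day 3, 1 to 5 at Day 4, 0 to 8 at Day 5, 0 to 8 for Day 5 against Day 3 and 0 to 2 for the dose difference. On intron reads the ranges were 8 to 11, 3 to 13, 2 to 5, 0 to 3 and 5 to 11 at 1 mM, and 18 to 24, 6 to 7, 13 to 15, 0 to 0 and 0 to 2 at 1 µM, and without Acute 24 h replicate 1 Chronic 1 h at 1 mM had 13 in place of 7. The cause was not tested.

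Correlations of the deviations of same-numbered libraries ran from -0.192 to 0.140 at 1 mM and from -0.301 to 0.446 at 1 µM, so not every pair was over 0.1 and the numbers were not taken to pair the libraries. With the replicate number as a block, members that passed were 0 at 1 mM Chronic 1 h, 1 at Day 5, 1 for Day 5 against Day 3, 0 for the dose difference, and on intron reads 1 at Day 2, 1 at Day 3 and 0 at Day 5. Without Acute 24 h replicate 1 the block gave 15, 24, 8 and 13 at 1 mM for Acute 1 h, Chronic 1 h, Chronic 24 h and Chronic against Acute 1 h.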
